A study of Mus musculus with 6 samples.

Results

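The 10 genes described here are effectors and targets of the Hippo pathway: the coactivators Yap1 and Wwtr1 (TAZ), the DNA-binding factors Tead1, Tead2 and Tead4, the kinases Lats1 and Lats2, and the target genes Ctgf (Ccn2), Cyr61 (Ccn1) and Amotl2. They were taken by symbol from a table of 23290 entries through the RefSeq identifiers it carries. All 10 had 1 entry each, and all 10 were among the 15387 entries that were tested. RNA was sequenced from whole mouse hearts at embryonic day E10.5 on a C57BL/6 background, with 3 control and 3 mutant hearts, each harvested from its own embryo and described as biological replicates. Control embryos were Nkx2-5+/+,Casz1f/+, so they carried 1 floxed allele of the zinc finger factor Casz1 and no Cre. Mutant embryos were Nkx2-5Cre/+,Casz1f/f, so they carried floxed Casz1 on both chromosomes and Cre recombinase at 1 Nkx2-5 allele. Every embryo therefore had at least 1 floxed Casz1 allele, and the genotypes differed at both loci. Cre from the Nkx2-5 locus acts in cardiac progenitors and their descendants, and heart cells that never express Nkx2-5 keep Casz1.

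In the Hippo pathway, the LATS kinases phosphorylate YAP1 and TAZ, which are then held in the cytoplasm and degraded. When they are not phosphorylated, YAP1 and TAZ enter the nucleus, bind TEAD factors on M-CAT elements and switch on target genes such as Ctgf, Cyr61 and Amotl2. The embryonic heart needs YAP1 with TEAD1 for the proliferation of its cardiomyocytes, and the pathway also acts in the epicardium and the endocardial cushions. Since control of YAP1 and TAZ lies largely in phosphorylation and location of the proteins, RNA levels of the effectors show their supply, and target genes are commonly used to read out their activity.

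Values are FPKM, the fragments of a gene scaled by transcript length and library size, with 1 value per genotype that combines its 3 hearts and none per heart. All levels, folds, p and q given here are those of the authors' deposited table, in which a gene counts as called where Cuffdiff's test gave q under 0.05. For a log2 fold change (mutant over control), the standard error (SE) is its size over that of its test statistic, and 95% intervals take the errors as normal. Of 15301 tested entries with a finite fold, 478 had an unadjusted p under 0.05, a share below 0.05. The median size of the test statistic over those entries was 0.27, less than normal errors alone would give. The SEs are therefore wide for most genes, and a gene that is not called is not shown to be unchanged. Sequencing depth and the spread between hearts are not known here, so no value per heart is given and levels are compared between genes without a test. In a whole heart, fewer cells of a type and less RNA per cell cannot be told apart.

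The regulatory sequence of the members bears on the pathway through the M-CAT element that TEAD factors bind. Of the 10 members, 7 matched an entry of a RefSeq promoter table (GRCm38.p6, the same assembly as mm10), with 9 start sites among them, and the 250 bases before each start were searched on both strands for the M-CAT core CATTCC. Ctgf, Tead1 and Tead4 had no matching entry. The core was in 5 of the 9 windows, against 12.6% of all 32851 windows of this length in the table. These 5 belong to 4 genes, Yap1, Wwtr1, Cyr61 and Amotl2, since both windows of Wwtr1 hold the same site. The windows of the target genes Cyr61 (chr3:145649986-145650235, minus strand) and Amotl2 (chr9:102717554-102717803, plus strand) are shown because these genes are textbook outputs of YAP1 and TEAD. Capitals mark the M-CAT core in both, and the letters TATAAA in Cyr61.

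Cyr61: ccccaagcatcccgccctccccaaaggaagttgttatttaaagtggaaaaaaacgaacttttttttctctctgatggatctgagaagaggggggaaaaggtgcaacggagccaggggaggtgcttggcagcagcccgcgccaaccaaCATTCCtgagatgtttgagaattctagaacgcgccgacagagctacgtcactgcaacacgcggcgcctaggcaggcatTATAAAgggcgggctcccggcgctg
Amotl2: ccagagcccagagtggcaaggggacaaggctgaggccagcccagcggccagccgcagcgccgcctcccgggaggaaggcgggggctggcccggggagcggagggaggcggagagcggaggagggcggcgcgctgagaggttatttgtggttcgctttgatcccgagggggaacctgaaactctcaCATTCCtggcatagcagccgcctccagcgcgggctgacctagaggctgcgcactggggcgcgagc

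The core began 103 bases before the start of Cyr61 and 65 bases before the start of Amotl2, on the strand of the gene in both. The letters TATAAA began 25 bases before the start of Cyr61 and are in 12.4% of all windows. In Yap1 and Wwtr1 the core lay on the opposite strand, 136 to 141 bases before the start of Yap1 and 131 to 136 bases before the first start of Wwtr1. The 30 bases around each, read in the direction of the motif (plus strand of chr9:8004720-8004749 and of chr3:57576029-57576058), show the core in capitals.

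Yap1: tgcgcgtcgctaCATTCCtgcagactcccg
Wwtr1: agcgcctatctgCATTCCtttgagtttacc

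In all 4 genes the base after the core is T, which gives the longer form CATTCCT of the element. That form is in 4.51% of all windows and was searched for only after these windows had been read. The AP-1 motif TGANTCA (either strand) and the CArG box were in 0 of the 9 windows, against 6.75% and 1.47% of all windows. A match of letters is a description of these windows and does not show that a factor binds there.

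None of the 10 genes was called between control and mutant hearts. Over all genes, 65 of 15387 tested entries were called (0.422%), of which 47 were higher and 18 lower in the mutants, so a count of 0 among 10 members does not stand apart from that background. The members' smallest unadjusted p was 0.144 (Cyr61), and q was 1.00 for each of the 10. Their log2 fold changes ran from -0.32 (Ctgf) to 0.41 (Cyr61), with 4 above 0 and 6 below 0. The median was -0.04, beside -0.02 over 15301 tested entries with a finite fold. The median size of the change was 0.10 in the members and 0.11 over those entries. The SE ran from 0.281 (Amotl2) to 0.464 (Lats2). For 8 of 10 members the 95% interval lay inside 2-fold in both directions, as it did for 78.8% of the 12150 tested entries with at least 1 FPKM in either genotype. Tead4 and Lats2 were the exceptions, with intervals that just passed 2-fold lower.

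**Figure D1:**
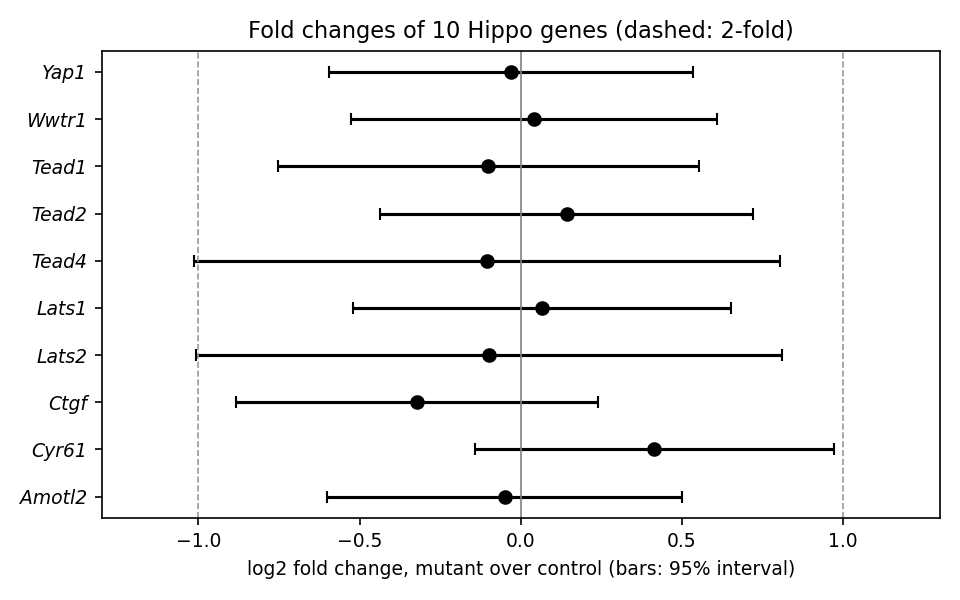
Log2 fold change (mutant over control, horizontal axis) of each of the 10 genes, with bars for the 95% interval and dashed lines at 2-fold. Every interval includes 0, and only those of Tead4 and Lats2 pass a dashed line.

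The coactivators were expressed at near-equal levels in both genotypes. Yap1 was at 40.3 FPKM in controls and 39.4 FPKM in mutants (log2 fold change -0.03, SE 0.288, 95% interval -0.60 to 0.53, q = 1.00). That level was above 86.8% of tested entries. Wwtr1, which encodes TAZ, the paralogue of YAP1, was at 11.0 FPKM in controls and 11.3 FPKM in mutants (log2 fold change 0.04, SE 0.289, 95% interval -0.53 to 0.61). Per length, Yap1 therefore stood 3.67-fold above Wwtr1 in control and 3.49-fold above it in mutant hearts. Yap1 made up 78.6% and 77.8% of their summed FPKM, which was 51.2 in control and 50.7 in mutant hearts. Yap1 lies on chromosome 9 from 7932001 to 8004596 and Wwtr1 on chromosome 3 from 57455644 to 57575910 (mm10, minus strand for both), and each entry joins 2 RefSeq transcripts. Wwtr1 shares 2520 bases with the transcribed pseudogene Gm16016 on the other strand, which had no entry.

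Tead2 was the most abundant of the 10 genes in both genotypes. It read 97.0 FPKM in controls and 107 FPKM in mutants (log2 fold change 0.14, SE 0.295, 95% interval -0.44 to 0.72). Tead2 is the TEAD factor known for high expression in early embryos, and its level was above 94.8% of tested entries. Tead1, the factor needed in the growing myocardium, read 21.5 FPKM in controls and 20.0 FPKM in mutants (log2 fold change -0.10, SE 0.333, 95% interval -0.75 to 0.55). Tead4, known for its part in the trophectoderm and in skeletal muscle, was the least abundant of the 10 genes, at 2.40 FPKM in controls and 2.23 FPKM in mutants (log2 fold change -0.11, SE 0.464, 95% interval -1.01 to 0.80). Tead2 thus stood 4.52-fold above Tead1 in control and 5.35-fold above it in mutant hearts, and the difference between their log2 fold changes was 0.24 (95% interval -0.63 to 1.12, taking the errors as independent).

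With Tead3, the family's remaining gene, at 14.7 and 16.1 FPKM, the TEAD family summed to 136 FPKM in controls and 145 FPKM in mutants. Tead2 supplied 71.5% of that sum in control and 73.6% in mutant hearts, Tead1 15.8% and 13.8%, Tead3 10.8% and 11.1%, and Tead4 1.77% and 1.54%. The order of the 4 genes was the same in both genotypes. Tead1 lies on chromosome 7 from 112679320 to 112906805 and Tead2 on the same chromosome from 45215753 to 45233619, both on the plus strand. Tead4 is on the minus strand of chromosome 6 from 128227143 to 128300813.

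The LATS kinases stood below the genes whose products they act on. Lats1 read 3.75 FPKM in controls and 3.93 FPKM in mutants (log2 fold change 0.07, SE 0.299, 95% interval -0.52 to 0.65). Lats2 read 7.73 FPKM in controls and 7.22 FPKM in mutants (log2 fold change -0.10, SE 0.464, 95% interval -1.01 to 0.81). Lats2 is itself a target of YAP1 and TEAD and takes part in the feedback of the pathway. It made up 67.4% of the summed LATS level in control and 64.8% in mutant hearts, where the sums were 11.5 and 11.1 FPKM. The SE of Lats2 was larger than that of 86.7% of the 12150 entries with at least 1 FPKM, so a change of Lats2 was measured less closely than one of Yap1. Lats1 lies on the plus strand of chromosome 10 from 7681209 to 7716461, and its first 129 bases overlap the start of Pcmt1 on the other strand, a gene at 39.1 and 37.4 FPKM. Whether counting used strand is not stated in the sources used here, so reads of that stretch cannot be assigned to 1 gene. Lats2 lies on the minus strand of chromosome 14 from 57689662 to 57746123. It shares 7537 bases with the protein-coding Gm52140 and 129 bases with the snoRNA Gm26440, and neither of these had an entry. The related kinases Stk38 and Stk38l (NDR1 and NDR2) read 23.4 and 8.89 FPKM in control and 23.2 and 8.42 FPKM in mutant hearts.

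The target genes Cyr61 and Ctgf had the largest changes among the members and went in opposite directions, neither past the test. Both encode secreted CCN matricellular proteins and are the most used readouts of YAP1 and TAZ activity. Cyr61 read 25.6 FPKM in controls and 34.1 FPKM in mutants, 1.33-fold higher (log2 fold change 0.41, SE 0.284, 95% interval -0.14 to 0.97, q = 1.00 in the authors' deposited table). Ctgf read 21.8 FPKM in controls and 17.4 FPKM in mutants, 1.25-fold lower (log2 fold change -0.32, SE 0.287, 95% interval -0.88 to 0.24, q = 1.00). Changes of Cyr61 and Ctgf were larger in size than those of 92.2% and 88.6% of the 12150 entries with at least 1 FPKM. Amotl2, an angiomotin family scaffold that binds YAP1 and is induced by it, read 25.2 FPKM in controls and 24.4 FPKM in mutants (log2 fold change -0.05, SE 0.281, 95% interval -0.60 to 0.50).

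The fold changes of the 3 targets thus had no common sign. The 95% interval of each includes 0, so a shared direction is not excluded. The ratio of Cyr61 to Amotl2 was 1.01 in control and 1.40 in mutant hearts, and the difference between their log2 fold changes was 0.46 (95% interval -0.32 to 1.25, taking the errors as independent). The ratio of Cyr61 to Ctgf was 1.18 in control and 1.96 in mutant hearts. The difference between the log2 fold changes of these CCN genes was 0.74 (95% interval -0.05 to 1.53, taking the errors as independent), and both intervals include 0. Both pairs were singled out after their values were seen. Cyr61 lies on the minus strand of chromosome 3 from 145646971 to 145649985, Ctgf on the plus strand of chromosome 10 from 24595442 to 24598682 (362 bases of it shared with the noncoding Gm15270 on the other strand), and Amotl2 on the plus strand of chromosome 9 from 102717804 to 102733417.

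**Figure D2:**
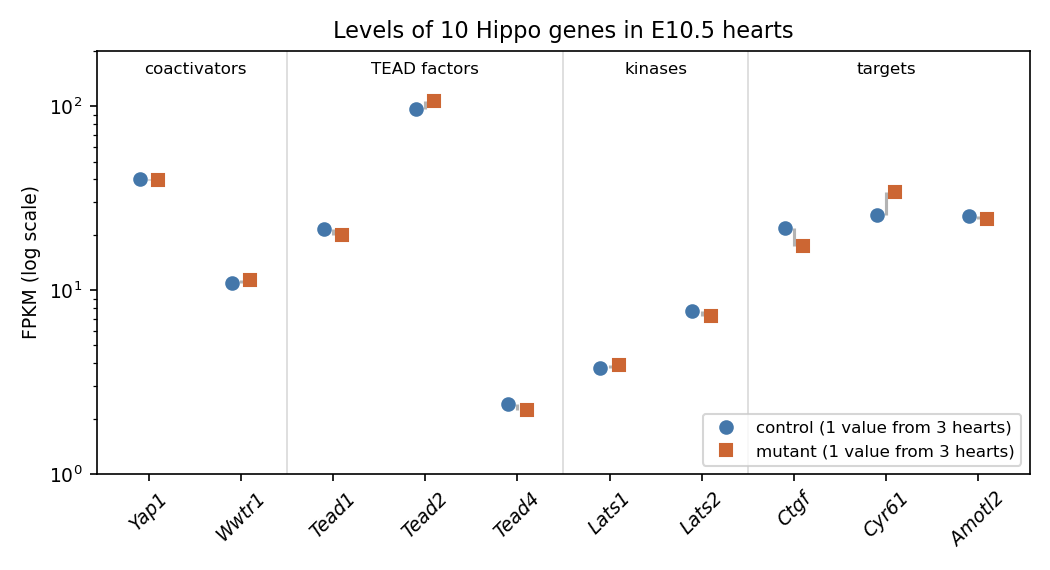
FPKM of the 10 genes (vertical axis, log scale) in control (circles) and mutant hearts (squares), each symbol 1 value that combines 3 hearts, with no error per heart known. The members span from 2.23 FPKM (Tead4) to 107 FPKM (Tead2), and Cyr61 and Ctgf show the widest gaps between genotypes.

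The order of the 10 levels was nearly the same in both genotypes. From high to low in control hearts it was Tead2, Yap1, Cyr61, Amotl2, Ctgf, Tead1, Wwtr1, Lats2, Lats1 and Tead4. In mutant hearts only Ctgf and Tead1 changed places, at 17.4 and 20.0 FPKM. In control hearts, Cyr61 and Amotl2 (25.6 and 25.2 FPKM) and Ctgf and Tead1 (21.8 and 21.5 FPKM) were neighbours at close levels. Without values per heart, the order of neighbours was not tested.

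Within their wider families the members held similar shares in both genotypes, apart from the CCN genes. Amotl2 made up 54.5% of the summed angiomotin FPKM in control and 53.6% in mutant hearts, with Amotl1 at 12.1 and 10.6 FPKM and Amot at 8.98 FPKM in controls and 1.17-fold that in mutants. In the CCN family, Cyr61 went from 46.1% to 57.4% of the sum and Ctgf from 39.2% to 29.3%, while the sum was 55.5 FPKM in controls and 59.5 FPKM in mutants. Wisp1 (Ccn4) read 7.31 and 7.17 FPKM. Nov (Ccn3) and Wisp3 (Ccn6) were under 1 FPKM in both genotypes, and Wisp2 (Ccn5), at 0.0361 and 0.0471 FPKM, was too low for the authors' test. Of the 5 tested CCN genes 0 were called, and 0 passed an unadjusted p of 0.05.

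**Figure D3:**
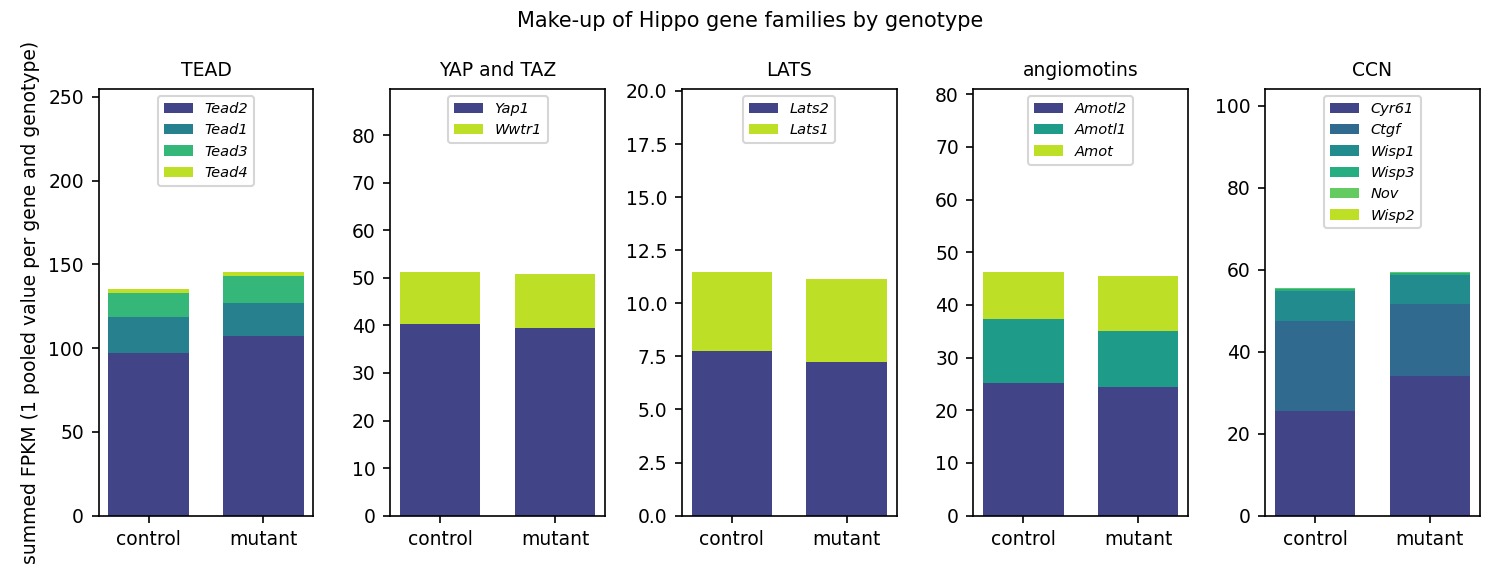
Summed FPKM (vertical axis, separate scale in each panel) of 5 gene families in control and mutant hearts, stacked by gene, with 1 value per gene and genotype and no error per heart known. Tead2 and Yap1 make up most of their bars in both genotypes, and in the CCN panel the Cyr61 part is 46.1% in control and 57.4% in mutant hearts.

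The rest of the pathway was described with 4 lists that hold 66 further genes, 65 of them tested. Of these 1 rose, Vgll2, 0 fell and 64 were not called, beside 0.422% called across the table. Their median log2 fold change was -0.03, close to the -0.02 of all tested entries. Among 19 upstream kinases and scaffolds 0 were called and for 0 was the unadjusted p under 0.05. Of the 19, 15 lay below 0 and 4 above, with a median of -0.06 and a range from -0.32 (Strn) to 0.06 (Map4k4). The MST kinases Stk3 and Stk4 (MST2 and MST1), which activate LATS, read 15.6 and 11.0 FPKM in control and 15.0 and 10.4 FPKM in mutant hearts. Their partner Sav1 read 17.5 and 16.8 FPKM, and Nf2 (Merlin), which brings LATS to the membrane, 22.4 and 22.0 FPKM. The most abundant genes of the list were Strn4, a scaffold of the STRIPAK phosphatase complex, at 38.2 and 34.4 FPKM, and the kinase Map4k4 at 32.9 and 34.3 FPKM.

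Genes that link cell contact and the cytoskeleton to the pathway also gave 0 calls, among 17 tested and 0 at an unadjusted p under 0.05. Their median log2 fold change was -0.01. Ctnna1 (alpha-catenin), an adherens junction protein that restrains YAP1, read 122 FPKM in controls and 111 FPKM in mutants (log2 fold change -0.14, SE 0.325). Wtip, an Ajuba family protein that binds LATS, read 24.0 and 23.8 FPKM.

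Among 13 tested cofactors of YAP1 and TEAD, 1 rose and 0 fell. Vgll2, a Vestigial-like protein that binds TEAD factors and is known from skeletal muscle and the pharyngeal arches, rose from 0.149 to 1.95 FPKM (log2 fold change 3.72, SE 0.715, 95% interval 2.31 to 5.12, q = 0.000131 in the authors' deposited table). The level in control hearts was low, and on the log2(FPKM + pseudocount) scale the change was 3.05 with a pseudocount of 0.1 FPKM and 1.36 with 1 FPKM. Vgll2 lies on the plus strand of chromosome 10 from 52022686 to 52028471. Markers of foregut epithelium rose in the same comparison: 5 of 8 rose and 0 fell, the list summed to 4.08 FPKM in controls and 19.3 FPKM in mutants, and Epcam, an epithelial adhesion protein, went from 0.971 to 4.42 FPKM. Their part in the change of Vgll2 was not tested. Vgll4, the Vestigial-like gene that was most abundant here and a known brake on YAP1 in the heart, read 12.5 FPKM in controls and 12.7 FPKM in mutants (log2 fold change 0.02, SE 0.333). Vgll2 thus supplied 1.14% of the Vestigial-like FPKM in control and 13.1% in mutant hearts, and Vgll4 96.1% and 84.7%. The 14-3-3 genes, whose products hold phosphorylated YAP1 in the cytoplasm, were the most abundant of the list, with Ywhae at 453 and 451 FPKM and Ywhaq at 189 and 206 FPKM. The median of the list was 0.02.

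The YAP target signature, 18 genes that respond to YAP1 in many cell types, gave 0 calls. Of these genes 9 lay above 0 and 9 below, and the median was 0.01. The changes were larger in size than the background, in both directions. Their median size was 0.20 in the signature, beside 0.11 for the table's 15301 finite folds. The median size of the test statistic was 0.59, beside 0.27, and both are less than normal errors alone would give. It was also 0.59 in the endothelial, 0.57 in the macrophage, 0.55 in the epicardial and 0.53 in the cushion markers described below. Cardiomyocyte (0.86), smooth muscle (2.79) and foregut (3.82) markers had larger values. The upstream, cell contact and cofactor lists had smaller ones (0.21, 0.27 and 0.21). A value of this size was thus not particular to the signature. Whether the signature differs from the table's background was not tested. The unadjusted p was under 0.05 for 1 gene. That gene was Foxf2, a forkhead factor of gut and craniofacial mesenchyme, which read 0.179 FPKM in controls and 0.909 FPKM in mutants (log2 fold change 2.35, SE 0.643, q = 0.0589 in the authors' deposited table, and 0.70 with a pseudocount of 1 FPKM). The most abundant gene of the signature was Ankrd1, a stretch-responsive cardiac ankyrin repeat protein, at 297 FPKM in controls and 214 FPKM in mutants (log2 fold change -0.48, SE 0.322, 95% interval -1.11 to 0.16). The next was Ccdc80, an extracellular matrix protein, at 24.4 and 25.0 FPKM.

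**Figure D4:**
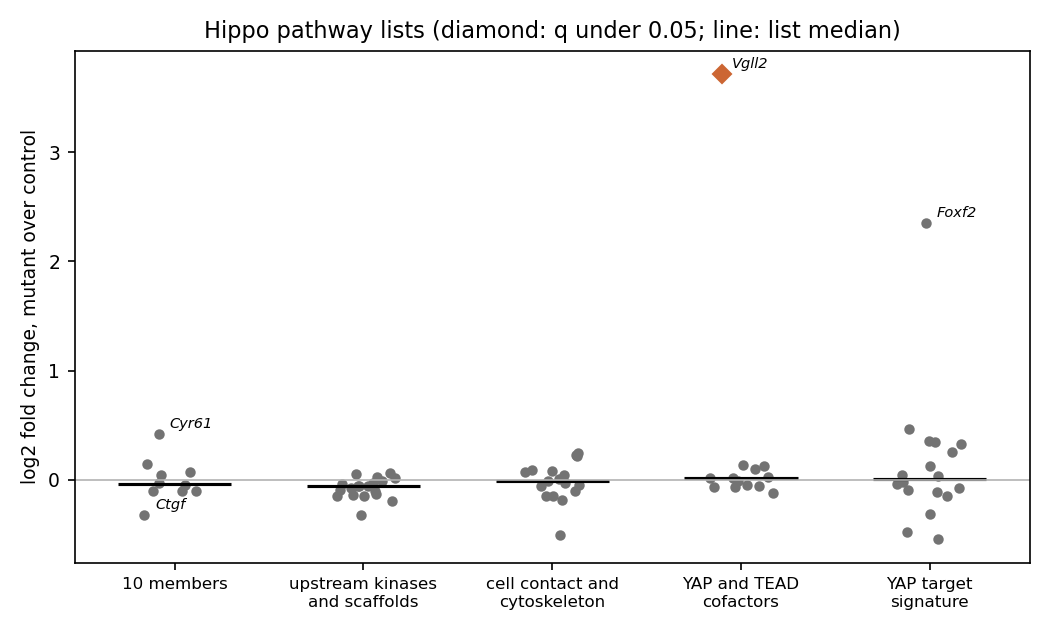
Log2 fold change (mutant over control, vertical axis) of the 10 members and of the genes of 4 Hippo pathway lists, each point 1 tested gene, horizontal position within a list arbitrary, and a black line at each list's median. Vgll2 (diamond, q = 0.000131) is the called gene, Foxf2 stands at 2.35, and the medians lie between -0.06 and 0.02.

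Several checks of the samples bear on these values. Casz1 read 6.61 FPKM in controls and 4.68 FPKM in mutants (log2 fold change -0.50, SE 0.306, q = 1.00), over a gene model that includes the undeleted exons, and Nkx2-5 read 143.0 and 82.9 FPKM (log2 fold change -0.79, SE 0.295, q = 0.536). All 10 cardiomyocyte markers were present. Of these 1 fell, Pln (129 and 56.2 FPKM, log2 fold change -1.20, q = 0.0193). In all, 8 of 10 lay below 0, with a median log2 fold change of -0.27. For 2 the unadjusted p was under 0.05, Pln and Nppa (1755 and 888 FPKM, q = 0.746). The summed FPKM of the 10 markers was 0.975 times the control level in the mutants. In that sum Myl7 (5080 and 7496 FPKM) and Myl2 (5549 and 3942 FPKM) went opposite ways. Of 7 tested smooth muscle markers 2 rose, Actg2 (1.37 and 7.72 FPKM) and Lmod1 (4.12 and 14.2 FPKM), and 0 fell. Of the 7, 5 lay above 0 and 2 below, and for 4 the unadjusted p was under 0.05. The median was 1.20 and the sums were 499 and 911 FPKM. Most of that sum is Tagln (333 and 767 FPKM, q = 0.411). Without Tagln the sums were 165 and 144 FPKM, mostly from Cnn1 (132 and 96.0 FPKM). Acta2, which had too many fragments for the test, is left out of these counts and sums. It was given as 867 FPKM in controls, more than that whole control sum of the tested markers. The 0 FPKM given for mutants is not read as a level here. Of 8 endothelial markers 0 were called and all 8 lay below 0 (median -0.17). Of 8 cushion mesenchyme markers 0 were called, with 6 above 0 and 2 below (median 0.11). The ratios of sums (mutant over control) were 0.872 for endothelial and 1.01 for cushion markers. Of 8 epicardial markers 1 rose, the keratin Krt8, and the median was -0.03. The epicardial ratio of sums was 1.31, and 0.958 without Krt8 and Krt18, keratins of simple epithelia. Of 6 tested macrophage markers 1 fell, Lyz2 (16.9 and 1.91 FPKM), and all 6 lay below 0, with a median of -0.28. The macrophage ratio of sums was 0.252, and Lyz2 made up most of the control sum of 20.9 FPKM. No marker in these lists stood at 0 in a tested entry. The part of these cell types in the values of the Hippo genes was not tested.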

How the data were processed

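RNA-seq of 3 control and 3 mutant mouse hearts was analysed from 1 table. The submitters' processing notes list Cufflinks 2.1.1, Cuffdiff, TopHat2 2.0.8 with Bowtie2 2.1.0.0, SAMtools 0.1.19.0 and FastQC 0.10.1, and the build mm10. Each gene has 1 FPKM value for each genotype, made by the authors, and no column holds a single heart. Beside it the authors deposited a fold change, a test statistic (a score of opposite sign), a p-value and a q-value. Settings for library normalisation and dispersion are not given in the sources used here. Without read counts no depth or counting interval can be stated.

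For tested entries with a finite fold, p was the normal tail of the test statistic within 2.8e-06. Benjamini-Hochberg adjustment of p gave q within 1.9e-05. RefSeq identifiers named 22999 of 23290 entries through a RefSeq gene table of the same assembly. Entries too low for a test (7742), failed (96) or with too many fragments (65) were left out. Starts were moved to counting from 1. Where genes overlap, reads may be shared; 4 of 10 members overlap another annotated gene. The members and lists were chosen with earlier results of these data known. Genes named are the 10 members and, of each pathway list, called genes, up to 4 with an unadjusted p under 0.05 and the 2 of highest mean FPKM. Casz1 and Nkx2-5 are named as checks of the samples. Others are named as family or pathway partners, as overlapping genes or as cell type markers, some after their values were seen. The value of 1 gene of a pathway list is not reported here. The adjustment, the SE and the motif search were tested on simulated data. Alternatives covered q thresholds, a 1 FPKM filter, a 2-fold minimum, pseudocounts, centring and summed entries. Python 3.11.15, numpy 2.4.6, pandas 2.3.3, scipy 1.17.1 and matplotlib 3.10.9 were used.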

Additional observations from a re-analysis of the deposited data

How the results depend on the processing

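The count of called members was 0 also at q under 0.1, with an adjustment over genes with at least 1 FPKM, and at an unadjusted p under 0.05. These settings could only give 0. The members' smallest unadjusted p in Cuffdiff's test was 0.144 (Cyr61), and an adjusted value is never below its p. A stricter q of 0.01 and a 2-fold minimum could also only give 0. Over the whole table, 41 genes passed at q under 0.01 and 487 at an unadjusted p under 0.05, against 65. Among the other pathway genes 2 passed at q under 0.1 and 2 at an unadjusted p under 0.05 (Vgll2 and Foxf2), against 1. Pseudocounts and centring on a median of -0.02 moved the members' log2 fold changes by at most 0.032. Summed entries could change nothing, since each member has 1 entry. The members' median stayed between -0.04 and -0.02. No paired analysis was possible because the table holds 1 value per genotype and none per heart, and for the same reason no replicate could be left out. Depth is unknown, so the wide intervals of Tead4, Lats2 and Vgll2 cannot be set beside a read count.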
